A study of Mus musculus with 14 samples.

Results

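The core circadian clock of the liver and its nearest output regulators were followed here through 10 genes, namely Arntl, Clock, Npas2, Per1, Per2, Per3, Cry1, Dbp, Tef and Bhlhe40. Each gene was represented by the probe set that is annotated with that symbol alone, and by the brightest such probe set over the 14 arrays where a gene had more. This left 9 of the 10 genes, out of 22180 genes measured in all. The only probe set listing Per2 also lists another gene, so Per2 is not reported. Liver RNA from male C57Bl/6J mice was hybridised to 1 Affymetrix whole-transcript array per sample. At 6 weeks of age all mice were put on a diet with 60% fat, freely available, which is abbreviated HFD. After 4 weeks they were divided into 3 groups and followed for another 4 weeks. HFD controls stayed on the diet alone (n = 4). The canagliflozin group received the drug with the diet (n = 5), at 30 mg/kg in the sample labels and 25 to 30 mg/kg in the protocol. The caloric restriction group was given 15 to 30% less food so that its weight matched the drug group (n = 5). Canagliflozin inhibits SGLT2, which takes glucose back up from the urine in the kidney. All groups shared the obesogenic diet, and no lean group is among the samples. The sources used here do not state the hour at which livers were collected. The labels count mice per group without tying each array to a mouse, so p values measure the spread between these samples, each of which is 1 array.

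The mammalian clock is a transcriptional feedback loop that runs in nearly every cell. The activator BMAL1, encoded by Arntl, pairs with CLOCK or its relative NPAS2 and binds E-box sequences in the genes of its own repressors, the PER and CRY proteins, and of output regulators such as DBP. BHLHE40, also called DEC1, competes for E-boxes and dampens the loop. DBP and TEF are transcription factors of the PAR bZIP family that bind D-box sequences, and NFIL3 represses through the same sequences. Arntl, Cry1 and Nfil3 carry elements bound by the ROR activators and REV-ERB repressors. In liver the transcripts driven by ROR elements and those driven by E-boxes peak at different times of day, and feeding time can set the phase of both.

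Promoter windows were available for 8 of the 10 genes, as 13 windows reaching from 250 bases before to 50 bases after a transcription start (RefSeq, GRCm38.p6). They were searched on both strands for the E-box CACGTG, the D-box as TTATGTAA or TTACGTAA, the ROR element TAGGTCA and the cyclic AMP response element TGACGTCA. No matches overlapped one another in the windows of the members. Among all 32851 windows of this length, 7.15% held the E-box, 1.06% the D-box, 2.61% the ROR element and 1.79% the cyclic AMP response element. Counted by gene, these shares were 8.09%, 1.23%, 2.97% and 2.03% of 27025 genes in the same order. At least 1 motif was found for 5 of the 8 genes. The share of all genes with any of these motifs was not computed. For each gene with a match 1 stretch is shown, so that the letters can be read beside the values that follow, with the matched motif in capitals. For Per3, Cry1, Tef (first window) and Per1 these are the 250 bases before the start. Positions are those of the first base of a motif, counted from the transcription start. Upstream of Per3 lay 2 D-boxes, at -205 and -158. Cry1, Tef and Per1 each had an E-box, at -60, -127 and -166, and a second Tef window, not shown, held another at -138. For Arntl a site of 30 bases from the second window is shown, in which the ROR element begins at position 31 after the transcription start. All are written 5′ to 3′ on the strand of the gene.
Per3, chr4:151044666-151044915, minus strand: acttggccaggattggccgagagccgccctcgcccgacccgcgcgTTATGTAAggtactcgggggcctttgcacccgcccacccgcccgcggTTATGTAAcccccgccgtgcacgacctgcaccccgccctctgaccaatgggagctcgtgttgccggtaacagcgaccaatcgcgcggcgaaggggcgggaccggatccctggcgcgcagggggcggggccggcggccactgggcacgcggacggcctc
Cry1, chr10:85185055-85185304, minus strand: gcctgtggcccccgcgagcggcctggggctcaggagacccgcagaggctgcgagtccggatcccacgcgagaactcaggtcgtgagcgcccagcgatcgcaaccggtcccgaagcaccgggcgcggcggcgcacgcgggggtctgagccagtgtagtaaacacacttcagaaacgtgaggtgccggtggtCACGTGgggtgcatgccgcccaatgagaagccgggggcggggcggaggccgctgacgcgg
Tef, chr15:81802423-81802672, plus strand: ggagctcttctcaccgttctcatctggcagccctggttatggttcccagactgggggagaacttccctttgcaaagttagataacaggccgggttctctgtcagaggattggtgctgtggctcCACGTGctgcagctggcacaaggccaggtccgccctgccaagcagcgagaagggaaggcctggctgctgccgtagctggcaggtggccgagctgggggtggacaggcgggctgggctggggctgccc
Per1, chr11:69098699-69098948, plus strand: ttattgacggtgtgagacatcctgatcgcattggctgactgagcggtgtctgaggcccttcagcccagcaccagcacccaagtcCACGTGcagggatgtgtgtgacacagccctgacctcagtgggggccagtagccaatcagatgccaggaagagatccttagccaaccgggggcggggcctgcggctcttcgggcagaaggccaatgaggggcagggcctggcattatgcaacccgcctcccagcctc
Arntl, chr7:113207530-113207559, plus strand: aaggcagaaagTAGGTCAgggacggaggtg
The windows of Dbp, Clock and Npas2 held none of these letters, which says nothing about sites elsewhere in those genes. A match describes the sequence and was not tested as a binding site.

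The deposited values were alike in scale, and the log2 median of an array ranged from 4.07 to 4.13. Any pair of arrays correlated with a Pearson r from 0.971 to 0.985 across probe sets. The 6 hepatocyte markers were bright on every array, each at 12.24 or above. The 2 measured pancreatic acinar markers stayed at 3.89 or below and those of skeletal muscle at 5.71 or below. The summed linear signal of the 5 macrophage markers ranged from 462 to 811 in HFD controls, from 577 to 800 under canagliflozin and from 384 to 757 under caloric restriction. That of the 4 adipocyte markers ranged from 75.4 to 102, from 66.5 to 150 and from 72.8 to 137 in the same order. Of 33 measured marker genes 0 passed limma's adjusted threshold in any comparison, and 2, 0 and 3 had an unadjusted p under 0.05 for canagliflozin against controls, caloric restriction against controls and canagliflozin against caloric restriction. Their part in the results below was not tested. In a bulk tissue, fewer cells of a type and less RNA per cell cannot be told apart.

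No member of the clock passed the test in any of the 3 comparisons. The test was limma across all 22180 genes with Benjamini-Hochberg adjustment at 0.05. The means of the D-box factors Dbp and Tef and of the repressor Per3 were 1.20-fold to 1.33-fold lower under canagliflozin than in HFD controls, without passing. That of Bhlhe40 was 1.24-fold lower, and 4 of the 9 members had higher means than controls. Hlf, of the same family as Dbp and Tef and read with the other clock genes, was 1.07-fold lower. Both treated groups are set against the same HFD controls, so those comparisons are not independent of each other.

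In the comparison of canagliflozin with HFD controls 0 of 9 members passed (smallest limma adjusted p = 0.723), against 0% of all genes. At an unadjusted p under 0.05 there were 3 members, Per3, Dbp and Tef, all lower. Of all genes 3.3% were lower and 3.21% higher at that level, 6.51% together. Between caloric restriction and HFD controls 0 of 9 passed (limma adjusted p = 0.999 for each), against 0% of all genes. Here 1 member, Per1, had an unadjusted p under 0.05, in the higher direction, against 2.06% of genes higher and 1.87% lower, 3.93% together. Between canagliflozin and caloric restriction 0 of 9 passed (smallest limma adjusted p = 0.801), against 0.00451% of all genes, which is the single gene Rtkn, lower under the drug by a log2 difference of -0.63 (limma adjusted p = 0.0264). At an unadjusted p under 0.05 there were 3 members, Per3, Tef and Bhlhe40, all lower under the drug, against 2.98% of genes lower and 3.07% higher, 6.05% together. With 9 members these shares rest on few genes, some of which varied together. The groups overlapped for all 9 members in all 3 comparisons. Among all genes, 0.965% were lower and 0.987% higher without overlap for canagliflozin against controls, 0.694% and 0.703% for caloric restriction against controls, and 0.491% and 0.437% for canagliflozin against caloric restriction.

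Dbp is the output factor whose transcript follows the E-box arm of the clock. It measured 9.41, 9.51, 10.05 and 9.90 in the HFD controls, 9.35, 9.44, 9.02, 9.20 and 9.50 under canagliflozin, and 9.85, 9.94, 9.90, 8.94 and 9.53 under caloric restriction, on the log2 scale. The 5 drug-treated samples all lay below the 3 highest controls, and in the restricted group a single sample, replicate 4, was the lowest of all 14. Means were 9.72 ± 0.31 (SD, n = 4) in controls, 9.30 ± 0.19 (n = 5) under canagliflozin and 9.63 ± 0.42 (n = 5) under caloric restriction. The difference between canagliflozin and controls was -0.41 ± 0.19 (SE) on the log2 scale, 1.33-fold lower, with a 95% interval from -0.80 to -0.02 (limma adjusted p = 0.751). Caloric restriction differed from controls by -0.09 ± 0.19, and canagliflozin from caloric restriction by -0.32 ± 0.18 with an interval from -0.69 to 0.04 (limma adjusted p = 0.828).

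Tef, the relative of Dbp that binds the same D-boxes, had a similar layout. Its values were 6.95, 6.80, 7.29 and 7.16 in controls, 6.86, 6.93, 6.78, 6.51 and 6.87 under the drug, and 7.14, 7.17, 7.20, 6.90 and 6.88 under restriction. The drug-treated samples were all below 3 of the 4 controls, with control replicate 2 among them. The means of 7.05 ± 0.22 (SD, n = 4), 6.79 ± 0.16 (n = 5) and 7.06 ± 0.15 (n = 5) gave a difference of -0.26 ± 0.12 (SE) between canagliflozin and controls (limma adjusted p = 0.758) and of -0.27 ± 0.11 between canagliflozin and caloric restriction (limma adjusted p = 0.802). Caloric restriction and controls differed by 0.01 ± 0.12, with an interval from -0.24 to 0.25. A second, dimmer Tef probe set measured 4.57 ± 0.11, 4.44 ± 0.08 and 4.68 ± 0.19 in controls, canagliflozin and caloric restriction, with the drug group again lowest in mean.

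Among the repressors, Per3 carries the D-boxes shown above. It measured 6.82, 7.08, 7.08 and 7.08 in controls, 6.50, 6.84, 7.06, 6.50 and 6.65 under canagliflozin and 6.96, 7.07, 7.09, 6.65 and 7.06 under caloric restriction. Control replicate 1 lay apart from 3 nearly equal controls. Canagliflozin replicate 3 was the highest of its group and restriction replicate 4 the lowest of its own. Means were 7.02 ± 0.13 (SD, n = 4), 6.71 ± 0.24 (n = 5) and 6.97 ± 0.18 (n = 5). The drug group differed from controls by -0.31 ± 0.13 (SE), 1.24-fold lower (limma adjusted p = 0.723), and from the restricted group by -0.26 ± 0.12 (limma adjusted p = 0.811). When 1 array was left out, the first of these differences ran from -0.40 without canagliflozin replicate 3 (limma adjusted p = 0.350) to -0.25 without canagliflozin replicate 4 (limma adjusted p = 0.899).

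Per1, the repressor gene that also responds directly to glucocorticoids and cyclic AMP, differed from Per3 in its layout. Its values were 7.36, 7.61, 8.19 and 8.24 in controls, 8.03, 8.10, 7.88, 8.33 and 8.19 under the drug and 7.88, 8.07, 8.38, 8.43 and 8.34 under restriction. The controls fell into a low and a high pair, and all 10 treated samples lay above the low pair. The restricted group had a mean of 8.22 ± 0.24 (SD, n = 5) and the controls one of 7.85 ± 0.44 (n = 4). They differed by 0.37 ± 0.17 (SE), or 1.29-fold (limma adjusted p = 0.999). Without HFD control replicate 1 this was 0.20. Canagliflozin averaged 8.11 ± 0.17 (n = 5), 0.26 ± 0.17 (SE) above controls, and 0.09 without HFD control replicate 1. Per1 also moved with the place of each array in the deposited order, in which the groups alternate. Its r with that place was 0.69 (permutation p = 0.00485, adjusted p = 0.0437 over the 9 members) and its rho 0.74 (permutation p = 0.00398). Leaving out both end arrays gave r = 0.74. The other members had r between -0.09 and 0.43 with it. With position as a covariate the restriction difference of Per1 was 0.32 (limma adjusted p = 0.999) and that of canagliflozin 0.30 (limma adjusted p = 0.618). The sources used here do not say how this order relates to sample handling, and its part in the Per1 values was not tested further.

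Cry1, a repressor of the BMAL1 and CLOCK pair, varied far more between samples than between groups. It measured 6.39, 5.99, 5.68 and 5.82 in controls, 5.89, 5.76, 6.55, 6.12 and 5.99 under canagliflozin and 5.98, 5.37, 5.69, 6.88 and 6.42 under caloric restriction. The lowest and the highest of the 14 values both came from the restricted group. Group means were 5.97 ± 0.31 (SD, n = 4), 6.06 ± 0.31 (n = 5) and 6.07 ± 0.60 (n = 5), and the differences from controls were 0.09 ± 0.24 (SE) and 0.10 ± 0.24. The interval for canagliflozin against controls, from -0.42 to 0.61, allows a difference of up to 1.52-fold.

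In the activating arm, Arntl had the widest spread of all members. Its values were 4.77, 5.09, 4.91 and 4.99 in controls, 4.71, 5.17, 5.93, 5.91 and 4.88 under canagliflozin and 5.48, 4.88, 4.57, 6.70 and 5.42 under caloric restriction. Controls sat within a narrow band, with 6 of the 10 treated samples above all of them and others within or below it. Means were 4.94 ± 0.14 (SD, n = 4), 5.32 ± 0.57 (n = 5) and 5.41 ± 0.81 (n = 5). The differences from controls were 0.38 ± 0.33 (SE) under the drug (limma adjusted p = 0.891) and 0.47 ± 0.33 under restriction (adjusted p = 0.999), and leaving out caloric restriction replicate 4 gave 0.15 for restriction and leaving out canagliflozin replicate 3 or 4 gave 0.23 for the drug. Clock, the partner of BMAL1, ranged from 8.37 to 8.59 in controls, 8.37 to 8.89 under the drug and 8.11 to 8.74 under restriction, with differences from controls of 0.13 ± 0.13 and -0.0044 ± 0.13. Npas2, which can stand in for CLOCK, had low values throughout, from 3.10 to 3.81, and differences from controls of -0.08 ± 0.15 and 0.03 ± 0.15. Whether Npas2 was above background was not analysed here.

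Bhlhe40, the E-box competitor, measured 9.82, 8.90, 9.76 and 9.52 in controls, 9.15, 8.89, 9.55, 9.38 and 8.99 under canagliflozin and 9.73, 9.54, 9.80, 9.43 and 9.45 under caloric restriction. Control replicate 2 was as low as the lowest drug-treated sample, and the restricted samples lay closer together, all above 4 of the 5 drug-treated samples. Between canagliflozin, at 9.19 ± 0.27 (SD, n = 5), and caloric restriction, at 9.59 ± 0.17 (n = 5), the difference was -0.40 ± 0.16 (SE), 1.32-fold lower under the drug (limma adjusted p = 0.801). Against controls, at 9.50 ± 0.42 (n = 4), the drug group differed by -0.31 ± 0.17, which was -0.51 without HFD control replicate 2 and -0.20 without HFD control replicate 1.

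**Figure D1:**
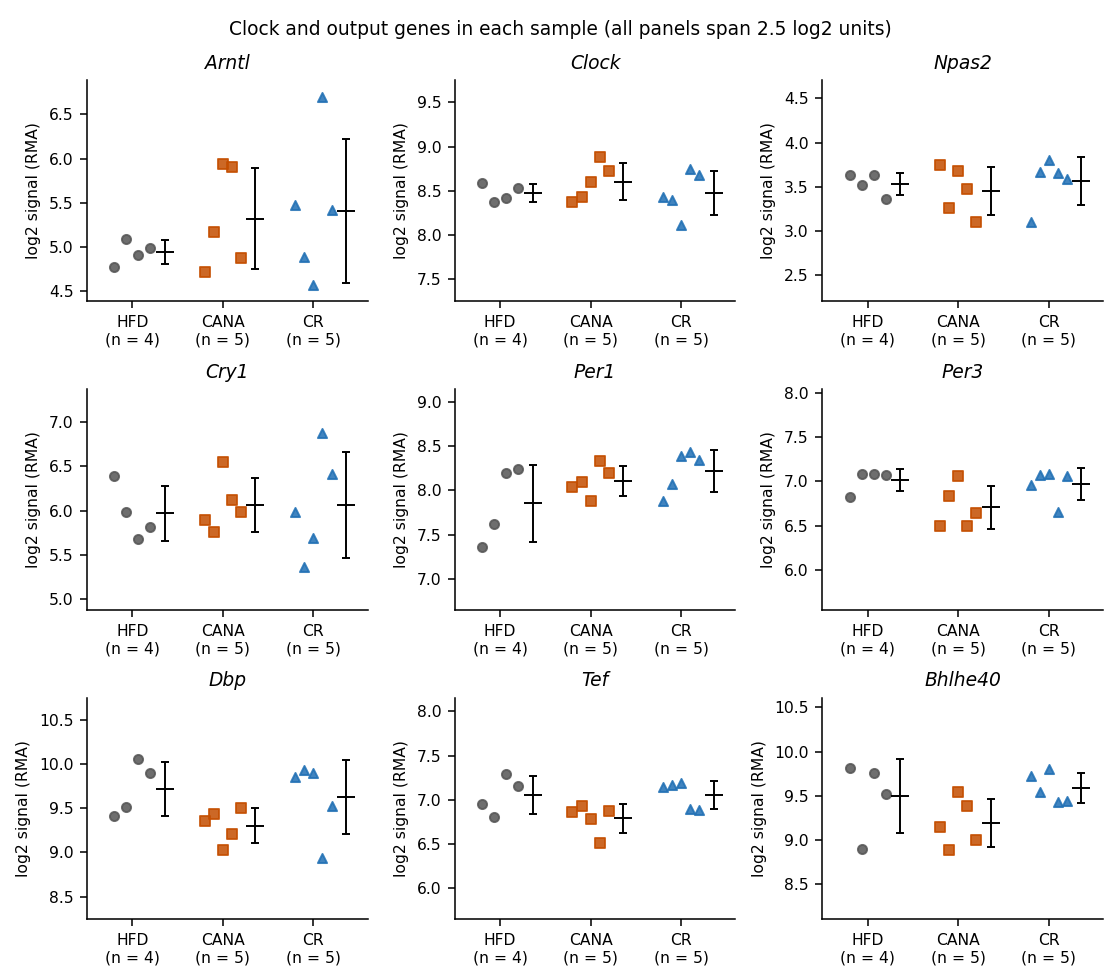
Log2 RMA signal of 9 clock and output genes (vertical axes, each spanning the same width) in every sample of the HFD control (HFD, n = 4), canagliflozin (CANA, n = 5) and caloric restriction (CR, n = 5) groups, with points placed by replicate number and the mean ± SD beside them. The groups overlap in every panel, and Arntl and Cry1 spread most, with caloric restriction replicate 4 at 6.70 and 6.88.

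**Figure D2:**
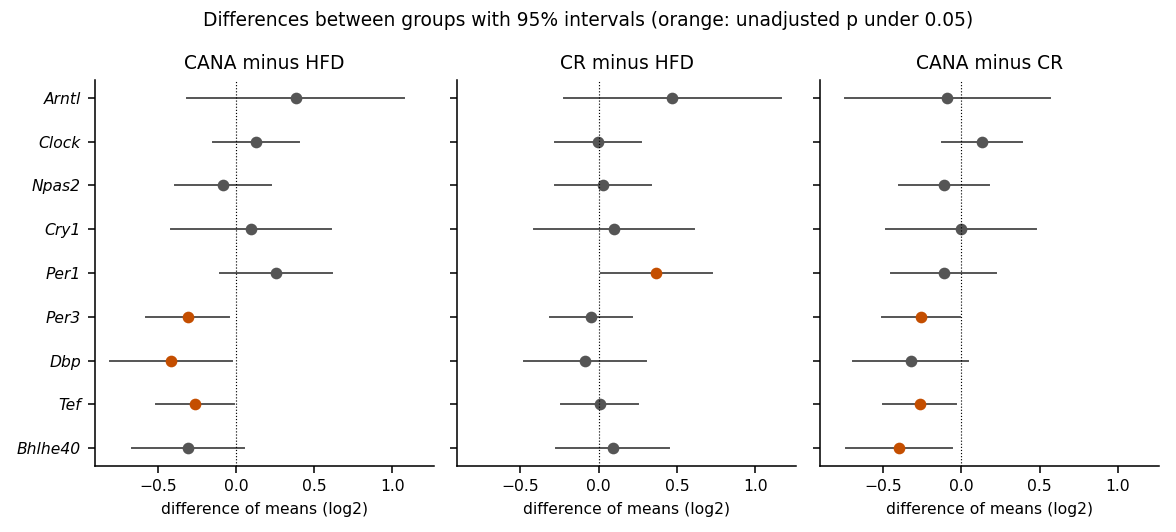
Difference of group means on the log2 scale (horizontal axis) with its 95% interval for 9 genes in 3 comparisons, where orange marks an unadjusted limma p under 0.05 and none of the 9 passed after adjustment over 22180 genes. Per3, Dbp and Tef are orange and lower for canagliflozin against HFD controls, Per1 is orange and higher for caloric restriction, and Per3, Tef and Bhlhe40 are orange and lower for canagliflozin against caloric restriction.

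Between samples of the same group, with the groups pooled, 8 of the 9 members differed more than the median of all genes, a reference not matched for signal level. The pooled standard deviation within groups was 0.60 for Arntl, higher than for 99.5% of all genes, and 0.44 for Cry1, higher than for 98.3%. For Arntl it was uneven, at 0.14 in controls, 0.57 under canagliflozin and 0.81 under caloric restriction. Dbp (0.32), Bhlhe40 (0.29) and Per1 (0.29) also lay above 90% of genes, so that 5 of 9 members did. Across all 14 samples the highest and lowest values differed 4.37-fold for Arntl, 2.86-fold for Cry1 and 2.17-fold for Dbp. Npas2 (0.24), Clock (0.20) and Per3 (0.19) were nearer to the median of all genes, 0.178, and Tef (0.176) was just below it. The median 95% interval of a member reached 0.36 to either side of a difference from controls on the log2 scale, which is about as wide as the differences given for Dbp, Per1 and Per3.

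Several members varied together between samples. All 36 pairs of the 9 measured members were correlated over the 14 samples, and 4 pairs passed a permutation test adjusted over the 36 pairs. Cry1 and Dbp ran against each other, with r = -0.80 (permutation p = 0.00055, adjusted p = 0.0099) and rho = -0.77 (permutation p = 0.00175, adjusted p = 0.034), and r was -0.69 without the 2 samples farthest from the median of Cry1. Dbp and Tef ran together, with r = 0.82 (permutation p = 0.00037, adjusted p = 0.0099) and rho = 0.77 (permutation p = 0.0021, adjusted p = 0.034), and r was 0.88 without the 2 samples farthest from the median of Dbp. Arntl and Cry1 gave r = 0.74 (permutation p = 0.0025, adjusted p = 0.03) and rho = 0.59 (permutation p = 0.029, adjusted p = 0.105). Arntl and Dbp gave r = -0.69 (permutation p = 0.00531, adjusted p = 0.0478) and rho = -0.43 (permutation p = 0.125, adjusted p = 0.31). The relations of Arntl rested in part on caloric restriction replicate 4 and canagliflozin replicate 3, the 2 samples farthest from its median, without which r was 0.38 with Cry1 and -0.36 with Dbp. Without the 2 samples farthest from the median of the other gene r was 0.57 and -0.54. Restriction replicate 4 had the highest Arntl (6.70) and Cry1 (6.88) and the lowest Dbp (8.94) of the 14 samples. Canagliflozin replicate 3 came next in each, at 5.93, 6.55 and 9.02.

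The same pairs were then read within groups. After subtraction of the group means, Cry1 and Dbp gave r = -0.91 (permutation within groups, p = 5e-05, adjusted p = 0.0018) and rho = -0.86 (permutation p = 0.00024, adjusted p = 0.00864), and the relation had the same sign in each of the 3 groups. Without the 2 samples farthest from the median of the Cry1 deviations r was -0.87. Dbp and Tef then gave r = 0.75 (permutation p = 0.00338, adjusted p = 0.0608), Arntl and Dbp r = -0.75 (permutation p = 0.00623, adjusted p = 0.0748) and Arntl and Cry1 r = 0.76 (permutation p = 0.0107, adjusted p = 0.0942), none of which passed after adjustment. With the position in the deposited order removed as well, r was 0.75, -0.78 and 0.75 for these pairs and -0.93 for Cry1 and Dbp, and all 4 passed (permutation adjusted p = 0.0179, 0.0162, 0.0181 and 0.00036). Those residuals were permuted over all samples and not within groups, without allowance for the terms removed, so their p values are not of the same test. By rank, Dbp with Tef (rho = 0.80, permutation, adjusted p = 0.0436) and Cry1 with Tef (rho = -0.80, permutation, adjusted p = 0.0427) did pass. Dbp and Tef had the same sign in all 3 groups, and both pairs with Arntl in 2 of 3. Without the 2 farthest samples the deviations gave r = 0.56 for Arntl with Cry1 and -0.50 for Arntl with Dbp. Without caloric restriction replicate 4 the number of pairs that passed over all samples was 1 in place of 4, Dbp and Tef, and r was -0.73 for Cry1 and Dbp. It was 2 without caloric restriction replicate 3 and 6 without canagliflozin replicate 1 or HFD control replicate 2. Per1 had r between -0.14 and 0.28 with the other members over the 14 samples, and between -0.46 (Cry1) and 0.39 (Tef) once group means and position were removed. Over the 14 samples, Clock, Npas2, Per1, Per3 and Bhlhe40 passed with no other member by r, while Per3 with Dbp passed by rank (rho = 0.75, permutation, adjusted p = 0.034). After subtraction of the group means Per3 with Dbp did not pass (rho = 0.33, permutation within groups, adjusted p = 0.543). Within the canagliflozin group the r of this pair had the opposite sign.

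**Figure D3:**
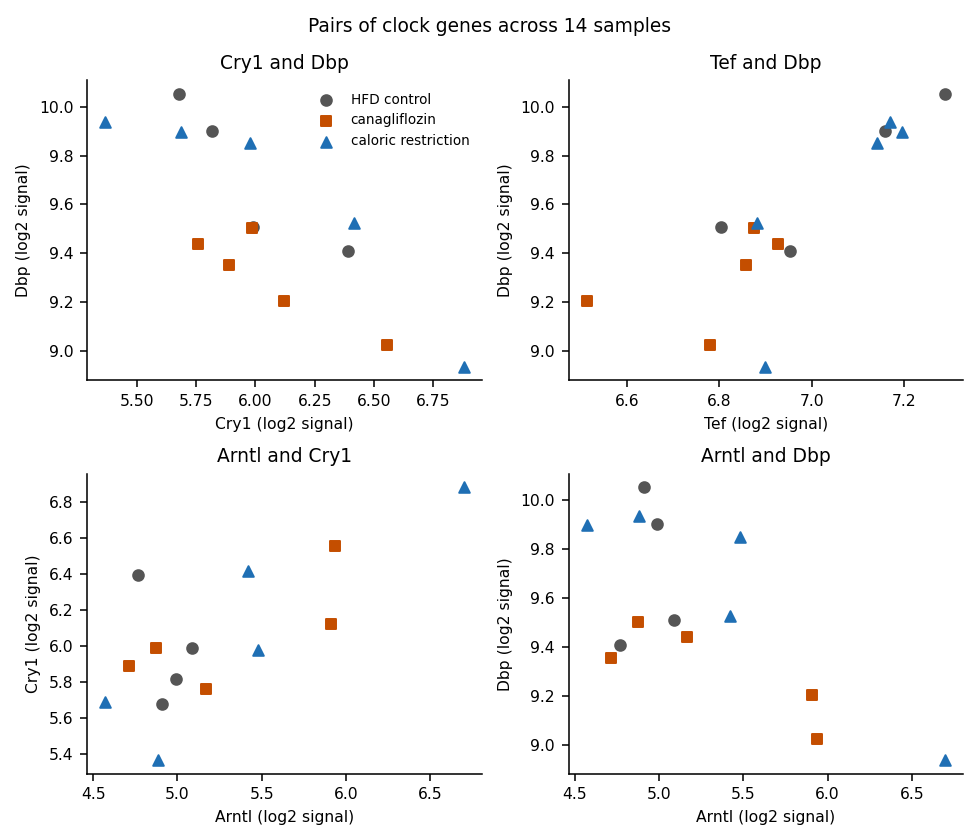
Log2 RMA signal of pairs of clock genes, each point 1 sample of the HFD control (circles), canagliflozin (squares) or caloric restriction (triangles) group. Dbp is low where Cry1 is high (r = -0.80) and high where Tef is high (r = 0.82), while in the 2 lower panels r is 0.38 and -0.36 without the 2 samples of highest Arntl.

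**Figure D4:**
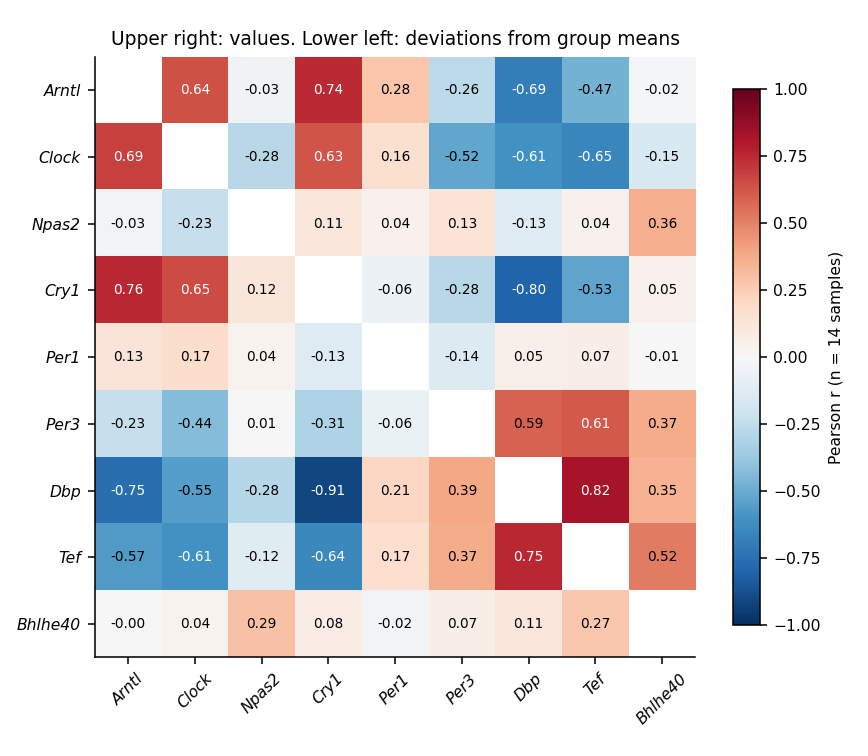
Pearson r for all pairs of 9 members over 14 samples, from the values in the upper right and from deviations from the group means in the lower left, with the colour running from -1 (blue) to 1 (red). Arntl, Clock and Cry1 are positive with one another and negative with Dbp and Tef on both sides of the diagonal, and Cry1 with Dbp is the most negative pair at -0.80 and -0.91.

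Genes outside the member list that lay closest to Arntl and Dbp across the samples were named by a rule, as the 3 highest and 3 lowest Pearson r among 8735 named genes with a mean log2 value of at least 5. For Arntl these were Ahctf1 (r = 0.91), Clpx (0.87) and Chka (0.85) on the positive side and Tbl2 (-0.85), Syt13 (-0.84) and Eepd1 (-0.80) on the negative side. For Chka, a choline kinase gene, r was 0.61 without the 2 samples farthest from the median of Arntl, and for the other 5 it ran from 0.80 to 0.81 on the positive side and from -0.83 to -0.73 on the negative side. For Dbp they were the fructose transporter gene Slc2a5 (0.83), H2-Q5 (0.82) and Plekhg6 (0.82), and on the negative side Vstm4 (-0.82), Rnd1 (-0.81) and Mob4 (-0.80). These values come from the same 14 arrays, were picked from many, and are given as a description. On the same scale, r of Cry1 with Dbp was lower than that of all but 0.0225% of the 22180 genes, and r of Tef with Dbp higher than that of 99.97%.

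The rest of the loop was read from a list of 15 other clock genes, of which 12 were measured. None of the 12 passed in any comparison (smallest limma adjusted p = 0.792, 0.999 and 0.828 for canagliflozin against controls, caloric restriction against controls and canagliflozin against caloric restriction). An unadjusted p under 0.05 was found for 0 of them, against 6.51%, 3.93% and 6.05% of all genes in the same order. With 12 genes a count of 0 is not far from those shares. Under canagliflozin 4 had higher and 8 lower means than controls, with a median of -0.02, and under caloric restriction 6 were higher and 6 lower with a median of 0.0013. Of all genes 50.3% and 49.5% had lower means in these 2 comparisons. The medians of all genes were -0.00085 and 0.0016, and those of the 9 members -0.08 and 0.03. Nr1d1, which encodes the repressor REV-ERBα, averaged 8.18 ± 0.42 (SD, n = 4) in controls, 8.18 ± 0.50 (n = 5) with canagliflozin and 8.24 ± 0.57 (n = 5) under restriction, and its relative Nr1d2 7.97 ± 0.07, 7.95 ± 0.07 and 7.98 ± 0.17. Over the samples Nr1d2 had r = -0.79 to Arntl, lower than for all but 0.0406% of genes, and r = 0.66 to Dbp. Nr1d1 had r = -0.49 to Arntl, with 4.56% of genes lower, and r = 0.57 to Dbp. Cry2, the second cryptochrome, was -0.26 ± 0.13 (SE) from controls under canagliflozin, and 4 of 5 drug-treated samples lay below all controls (limma adjusted p = 0.792). Nfil3, the repressor at D-boxes, had means of 6.58 ± 0.47 (SD, n = 5) with the drug and 6.11 ± 0.21 (n = 4) in controls, differing by 0.47 ± 0.26 (SE) of opposite sign to those of Dbp and Tef (limma adjusted p = 0.799), and its r with Dbp over the samples was -0.67. Hlf, of the same family as Dbp and Tef, was -0.09 ± 0.10 (SE) from controls under the drug (limma adjusted p = 0.912) and -0.0029 ± 0.10 under restriction. Its r with Dbp was 0.44. Ciart, a repressor of the BMAL1 and CLOCK pair, averaged 7.66 ± 0.28 (SD, n = 5) under restriction, 7.23 ± 0.42 (n = 5) with canagliflozin and 7.24 ± 0.50 (n = 4) without treatment. Its difference between the treated groups was -0.43 ± 0.21 (SE, limma adjusted p = 0.828), and its r with Dbp was 0.67. Btrc, part of the ubiquitin ligase that acts on PER proteins, differed from controls by -0.09 ± 0.09 and -0.13 ± 0.09 under the drug and restriction. Over the samples r to Arntl and to Dbp was -0.12 and 0.06 for Btrc, and 0.11 and 0.21 for Cry2.

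Among 12 liver genes known to be rhythmic, 11 were measured and 0 passed in any comparison (smallest limma adjusted p = 0.596, 0.999 and 0.683 in the same order). Under canagliflozin 5 had higher and 6 lower means than controls, where 50.3% of all genes had lower means. At an unadjusted p under 0.05 there were 2 in each direction, against 3.21% of genes higher and 3.3% lower. There were 0 for caloric restriction against controls, against 2.06% of genes higher and 1.87% lower. Between the treated groups there were again 2 in each direction, against 3.07% higher and 2.98% lower. Noct, a clock-driven phosphatase gene, had a mean of 7.48 ± 0.34 (SD, n = 5) with canagliflozin, 6.92 ± 0.41 (n = 4) in controls and 7.02 ± 0.12 (n = 5) under restriction, which is 0.56 ± 0.18 (SE) from controls and 0.46 ± 0.17 from restriction. Wee1, a cell cycle kinase gene with E-boxes, was -0.53 ± 0.18 (SE) from controls under the drug and -0.31 ± 0.18 under restriction. Lonrf3 averaged 4.23 ± 0.33 (SD, n = 5) under the drug against 4.70 ± 0.14 (n = 5) under restriction and 4.60 ± 0.24 (n = 4) in controls, with 4 of 5 drug-treated samples below every sample of both other groups. Its values were low, from 3.99 to 4.92, and whether they were above background was not analysed here. Insig2, which retains the SREBP escort protein in the endoplasmic reticulum, averaged 8.41 ± 0.21 (n = 5) under the drug against 8.05 ± 0.11 (n = 4) in controls. All 5 drug-treated samples lay above all controls for Insig2, where 0.987% of genes were higher without overlap. Over the samples Insig2 had r = 0.78 to Arntl and -0.76 to Dbp. In the same order r was -0.10 and -0.17 for Noct, -0.16 and 0.45 for Wee1, and 0.15 and 0.07 for Lonrf3.

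Since Per1 responds to glucocorticoids, 8 glucocorticoid-responsive regulators were read beside it, and 0 passed in any comparison (smallest limma adjusted p = 0.601, 0.999 and 0.828). At an unadjusted p under 0.05 there were 2 for canagliflozin and 1 for caloric restriction against controls, all higher, against 3.21% and 2.06% of all genes higher, and 0 between the treated groups, against 6.05% in either direction. Under caloric restriction 7 of 8 had higher means than controls, against 11201 of 22180 genes. The median was 0.19 against 0.0016 for all genes. Under canagliflozin 5 of 8 were higher, against 11025 of 22180 genes, with a median of 0.10 against -0.00085. Ddit4, an inhibitor of mTORC1, was 0.82 ± 0.29 (SE) from controls under restriction and 0.91 ± 0.29 under the drug. Cdkn1a, a cell cycle inhibitor, was 0.92 ± 0.50 and 0.39 ± 0.50 from controls, Tsc22d3 0.27 ± 0.17 and -0.02 ± 0.17, and Cebpd 0.19 ± 0.18 and 0.43 ± 0.18 in the same order. The classical glucocorticoid target Fkbp5 was 0.19 ± 0.17 and -0.0033 ± 0.17 from controls. Whether glucocorticoids had a part in any of these values was not tested.

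**Figure D5:**
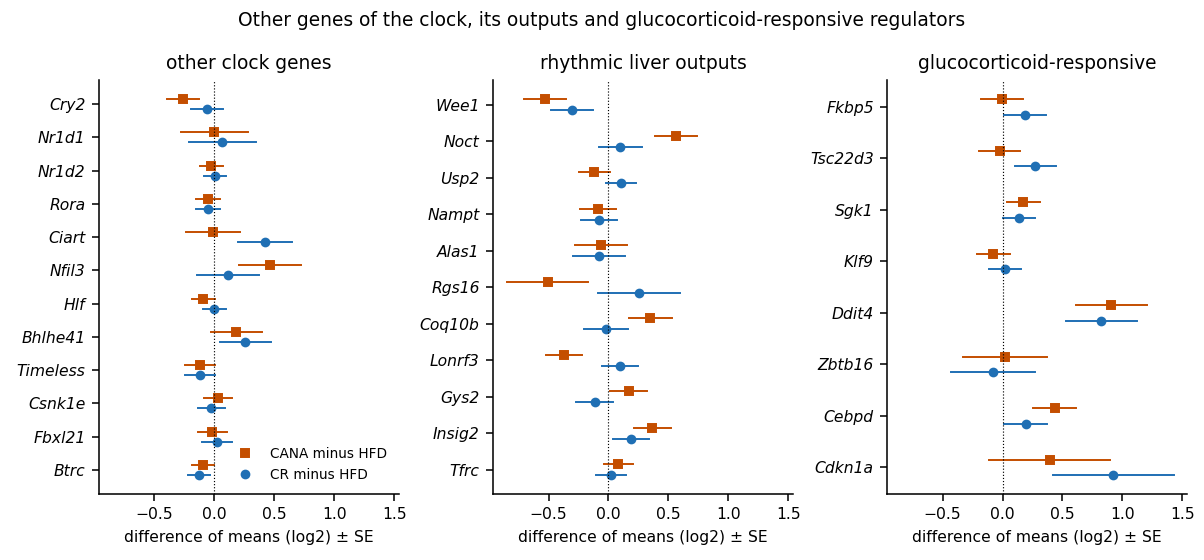
Difference of group means on the log2 scale ± SE (horizontal axes) for 12 other clock genes, 11 rhythmic liver genes and 8 glucocorticoid-responsive genes, with squares for canagliflozin against HFD controls (CANA minus HFD) and circles for caloric restriction against HFD controls (CR minus HFD). The first list centres on 0, and the second spreads to both sides under the drug. Ddit4 lies furthest right under canagliflozin at 0.91, and Cdkn1a under caloric restriction at 0.92.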

How the data were processed

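Liver RNA (250 ng per sample) was labelled by the Affymetrix WT Plus procedure, per the labels' protocols. Values are log2 signals that the authors deposited for each probe set. The submitters' processing notes name RMA and Affymetrix Expression Console. RMA equalises distributions between arrays, so a difference in total RNA would not be seen. No software version, library file or genome build appears in the sources used here. The number of arrays limits the precision, as arrays have no depth.

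Of 41345 probe sets, 23521 carry 1 gene symbol, 1814 several and 16010 none. The identifiers of 23328 matched the RefSeq gene table. Taking the brightest probe set per gene gave 22180 genes, all tested. Sample titles give the groups. limma 3.58.1 (R 4.3.3) fitted group means over the 14 arrays, with Benjamini-Hochberg adjustment over all genes at 0.05. Correlations over samples used 100000 two-sided permutations, within groups for deviations, adjusted over 36 pairs. The limma fit and the permutation over all samples were tested on simulated data. The permutation within groups was not tested in this way.

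The members and lists were chosen with earlier results of these data known. The rule named all members, up to 4 genes per list with the smallest p, and the 3 genes most alike and most opposite to Arntl and to Dbp. Nr1d1, Nr1d2, Hlf, Fkbp5 and Rtkn were added after their values were seen.

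Alternatives changed the samples fitted, the filter on dim genes (mean log2 of 5 or 6), the scaling (median centring, cyclic loess), the variance model (trend and robust, array weights), the use of several probe sets, the replicate block, position as a covariate, and left out each array. The correlation of members with position was chosen after seeing the data.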

Additional observations from a re-analysis of the deposited data

Results flagged for a closer look

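Of 27 combinations of a member and a group, 1 had a sample far from the others of its group. Per3 in HFD control replicate 1 measured 6.82, and the nearest of the other 3 controls 7.08, a gap that took up 0.974 of the range of the group. Chance alone marks about 1 in 20 such groups. Without that sample the difference of Per3 between canagliflozin and HFD controls was -0.37.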

How the results depend on the processing

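No member passed the threshold under any alternative, and 607 of 639 member values kept their direction. Of the 32 that reversed, 28 came from leaving out 1 array, and 16 of 27 differences never reversed. For caloric restriction against controls Clock was 0.0092 with cyclic loess and 0.016 with array weights, and Tef -0.0072 with array weights. Cry1 between the treated groups was 0.031 with position as a covariate. Leaving out 1 array gave ranges for canagliflozin against controls of -0.16 to 0.0066 (Npas2) and -0.029 to 0.24 (Cry1). For caloric restriction against controls they were -0.072 to 0.085 (Clock), -0.031 to 0.14 (Npas2), -0.11 to 0.030 (Per3), -0.11 to 0.27 (Cry1), -0.19 to 0.084 (Dbp), -0.076 to 0.086 (Tef) and -0.11 to 0.20 (Bhlhe40). Between the treated groups they were -0.30 to 0.23 (Arntl) and -0.18 to 0.20 (Cry1). Causes were not tested.

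Over all genes, canagliflozin against controls gave 0 calls, 1 with either filter on dim genes, 1 with position as a covariate, and 0 to 12 without 1 array, the most without canagliflozin replicate 3. Caloric restriction against controls gave 0 calls, and 1 with position. Canagliflozin against caloric restriction gave 1 call, 0 with only those groups fitted, 0 with a mean of at least 6, and 0 to 16 without 1 array, the most without canagliflozin replicate 3. Of the 36 pairs 4 passed, 1 from deviations, 4 from residuals after group means and position, and 1 to 6 without 1 sample. Npas2 is missing under both filters and Arntl under the stricter one.

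With the replicate number as a block the last comparison gave 2 calls and no member passed. The numbers were not taken as pairs, as the labels do not say what they mark. After subtraction of group means, arrays of the same number in different groups correlated between -0.089 and 0.198, with a median of 0.050. Those of different numbers correlated between -0.214 and 0.182, with a median of -0.019. These overlapping ranges do not settle whether some arrays share a batch, which was not tested.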
